A study of Mus musculus with 25 samples.

Results

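Serpins are protease inhibitors that share one fold. A target protease cleaves an exposed stretch, the reactive centre loop, and is then trapped in a covalent complex with the inhibitor. The liver secretes many of them into plasma, where they restrain elastase, coagulation, fibrinolysis and complement. Some members have lost inhibition and instead carry hormones or assist collagen folding. The 62 genes described here are all the genes among the 36333 of the table whose name begins with Serpin, a clade letter from a to i and a digit. They comprise 24 genes of clade a (secreted, antitrypsin-like), 27 of clade b (mostly intracellular), 3 of clade e (among them protease nexin 1) and 8 of clades c, d, f, g, h and i.

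RNA-Seq was performed on hepatoblastomas (HBs) and livers of FVB mice, with 5 libraries in each of 4 groups. The groups were HBs of mice on a diet with 10% dodecanedioic acid (DDDA), a dicarboxylic acid, HBs of mice on the standard diet, livers on the DDDA diet and livers on the standard diet. The HBs arose after hydrodynamic injection of Sleeping Beauty vectors that encode β-catenin with the Δ(90) deletion and YAP S127A, so each was a bulk tumor sample whose driver genes were overexpressed. The livers came from mice that had not been injected, so HBs and livers differed in injection as well as in tissue, and males and females were 1 and 4 among HBs on DDDA, 3 and 2 among HBs on the standard diet, 3 and 2 among livers on DDDA, and 2 and 3 among livers on the standard diet. The DDDA diet was given for 3 to 4 weeks in the labels. Mice were 6 to 7 weeks old at injection, and HB samples were taken from regions of viable appearance. HBs of mice kept on DDDA for longer were not analysed here. Nothing in the labels says that libraries of a group came from separate litters or cages, so p-values measure the spread between these libraries.

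Total counts per library were between 16548771 and 29783324. The summed CPM (counts scaled to a common library size by TMM factors over all 20 libraries) of 8 hepatocyte markers was 18998 to 44510.1 in HBs on DDDA and 19707 to 36149.5 in HBs on the standard diet, against 68746 to 133215 in livers on DDDA and 85852 to 130124 in livers on the standard diet, so hepatocyte transcripts were abundant in every library. In bulk samples, fewer cells of a type and less RNA per cell cannot be told apart. Sequencing run and diet cannot be told apart, because the column names place the standard diet libraries on a single flow cell that none of the DDDA libraries shared. Of the DDDA libraries, DL03 and DT3168 came from another flow cell than the rest. HBs and livers of a diet were read on different lanes, so tissue and lane cannot be told apart. One HB library, DT2264 on the DDDA diet, stood apart in markers of other cells, with 3026 summed CPM of 8 stellate cell and fibroblast markers, while the other HBs on DDDA had 62.3 to 561 and the HBs on the standard diet 259 to 672. Among livers, DL02 on the DDDA diet had 67.2 summed CPM of 6 neutrophil markers, and every other liver had at most 5.49.

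Most clade a genes lie in tandem. Of the 24, 23 are on chromosome 12 within 798 kb (GRCm38 chr12:103616675-104414334), and Serpina7 is on the X chromosome. The clade b genes lie mainly on chromosome 1 (12 genes, chr1:106861180-107611795) and chromosome 13 (15 genes, chr13:32842092-34002794). Copies of such clusters can exchange reads, and how the authors' software assigned reads that fit several genes is not given in the sources used here. In the GENCODE transcripts of the reference strain, 49.9% of the 100-base windows of Serpina1a and 58.5% of those of Serpina1c also occurred in another gene, against 14.8% for Serpina1e. Windows of Serpina3k and Serpina3m were shared to 4.85% and 6.09%, those of Serpina11 to 42.4%, and Serpina3c, Serpina7, Serpinb6a and Serpinb6b shared none. The mice were FVB and the reference is of another strain, in which the number of Serpina1 copies can differ.

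The 5 Serpina1 copies with reads in liver differ in the loop that meets the protease, which sets what each can inhibit. The coding stretch of that loop is given here for each copy from the GENCODE transcript (GRCm38, chromosome 12, minus strand, coding sequence), and capitals mark the 14 of 81 positions at which the copies differ.
Serpina1a: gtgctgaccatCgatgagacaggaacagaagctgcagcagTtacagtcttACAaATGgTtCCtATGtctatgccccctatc
Serpina1b: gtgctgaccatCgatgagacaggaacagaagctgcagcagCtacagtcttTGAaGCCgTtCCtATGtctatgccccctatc
Serpina1c: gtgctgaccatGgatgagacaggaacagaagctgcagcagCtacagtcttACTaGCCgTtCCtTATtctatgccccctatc
Serpina1d: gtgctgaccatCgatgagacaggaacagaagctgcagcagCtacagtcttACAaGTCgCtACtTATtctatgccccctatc
Serpina1e: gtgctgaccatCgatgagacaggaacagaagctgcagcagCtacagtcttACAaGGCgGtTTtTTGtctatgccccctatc
Any pair of these differed at 5 to 9 of the 81 bases, and most differences stood in a block past the middle of the stretch. Of the Serpina3 copies, 4 are shown for the same loop, from the same source, because 3 of them were among the serpins with the largest falls in HBs (Serpina3c minus strand, the others plus strand). Capitals mark the 32 of 66 positions at which they differ.
Serpina3c: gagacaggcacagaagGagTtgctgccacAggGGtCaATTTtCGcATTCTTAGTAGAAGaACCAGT
Serpina3k: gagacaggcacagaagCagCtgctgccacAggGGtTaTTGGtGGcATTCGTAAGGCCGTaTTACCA
Serpina3m: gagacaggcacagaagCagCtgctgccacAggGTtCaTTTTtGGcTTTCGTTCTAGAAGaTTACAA
Serpina3n: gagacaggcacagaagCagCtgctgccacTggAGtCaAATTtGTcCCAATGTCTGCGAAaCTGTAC
Pairs of these 4 differed at 14 to 25 bases, and most differences lay in the later part of the loop. They were lined up without gaps at the stretch they share at the start, so later positions may not correspond where loop lengths differ.

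Of the 62 serpins, 9 had no read in any library, 33 passed the filter on low counts in at least 1 of the tissue and diet comparisons, and the 29 others had a mean of at most 0.671 CPM in every group. In clade b, 22 of 27 genes were not tested, among them every Serpinb3 copy. Per length, serpins together made up 1.02 to 1.56% of all TPM (the deposited length-scaled transcript unit) in HBs on DDDA and 0.831 to 1.46% in HBs on the standard diet, against 2.83 to 3.81% in livers on DDDA and 2.49 to 3.69% in livers on the standard diet. No HB reached the lowest liver. Clade a held 46.2 to 61.4% of the serpin TPM in HBs on DDDA and 53.2 to 71.4% in HBs on the standard diet, against 81.2 to 87.7% in livers on DDDA and 76.7 to 90.4% in livers on the standard diet. Clade b held 3.33 to 4.70% and 2.08 to 4.93% in these HBs, against 0.0325 to 0.0948% and 0.0308 to 0.124% in these livers. The leading serpin by mean TPM was Serpina6, corticosteroid-binding globulin, in both HB groups, with 1547 ± 1189 TPM on DDDA and 1604 ± 708 TPM on the standard diet (SD, n = 5 each). In livers it was Serpina3k, with 10994 ± 1760.5 TPM on DDDA and 6997 ± 3446 TPM on the standard diet (SD, n = 5 each). In HBs on DDDA, Serpina6 and Serpinc1 (antithrombin, 1542 ± 603 TPM) did not differ beyond their spread, and in HBs on the standard diet Serpinc1 (1176 ± 185 TPM) also lay within the spread of Serpina6. Further serpins lay within that spread, among them Serpina1b, at 1365 ± 400 TPM on DDDA and 1115 ± 566 TPM on the standard diet. In livers on the standard diet, Serpina1c (5618 ± 1537 TPM), Serpina1b (5576 ± 414 TPM) and Serpina1a (3828 ± 789 TPM) lay within the spread of Serpina3k.

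**Figure D1:**
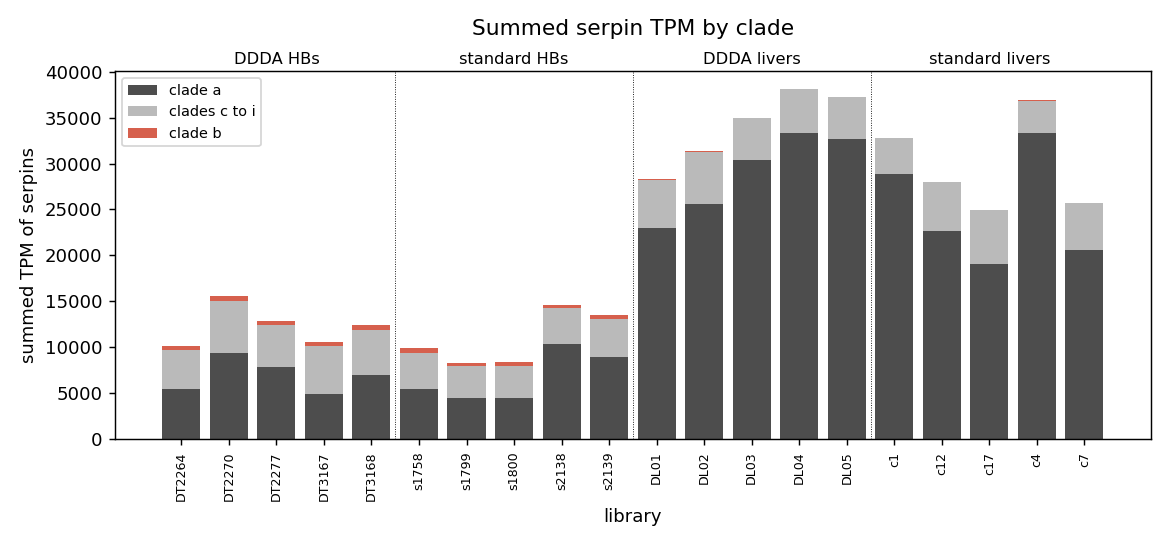
Summed TPM of all serpins in each of the 20 libraries (bars, stacked by clade), with HBs on the left and livers on the right. Every HB bar is shorter than every liver bar, and the clade b part is visible in HBs only.

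**Figure D2:**
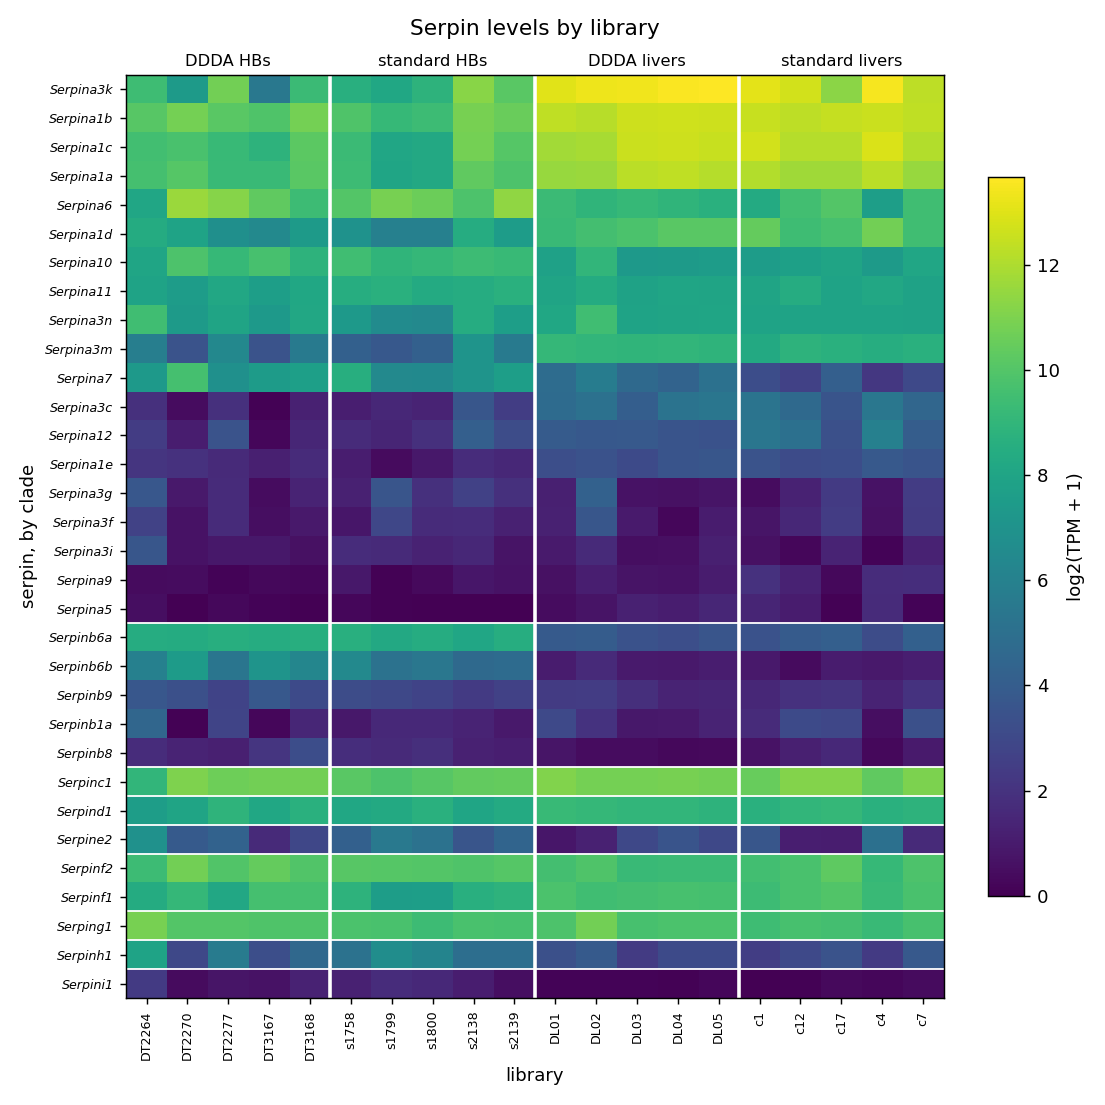
Colour gives log2(TPM + 1) of 32 serpins tested in at least 1 comparison (rows, by clade) in each of the 20 libraries (columns, by group). The Serpina1 and Serpina3k rows are brightest in livers, the Serpinb6a, Serpinb6b and Serpina7 rows are brighter in HBs, and DT2264 stands apart in Serpinh1.

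HBs held fewer transcripts of most secreted plasma serpins and more of a few others, on both diets. On the DDDA diet, 30 serpins were tested by edgeR's quasi-likelihood test, with 6 higher and 14 lower in HBs than in livers, where 26.3% of all 13415 genes tested were higher and 23.4% lower. On the standard diet, 32 were tested, with 7 higher and 17 lower, where 28.2% of 13830 genes were higher and 26.8% lower. The median log2 fold change of the serpins was -0.97 on DDDA and -0.67 on the standard diet, against 0.08 and 0.02 over all genes tested. On DDDA, 10 of 17 clade a genes fell and 1 rose, and on the standard diet 11 of 18 fell and 2 rose, with clade medians of -2.62 and -2.93. Clade b went the other way on DDDA, with 4 of 5 higher and none lower, and had 2 of 5 higher and 1 lower on the standard diet. The 2 comparisons share no library, and the share of all genes tested that was called in both was not computed. Called lower in both were 13 serpins, which is 92.9% of those on DDDA and 76.5% of those on the standard diet, and 4 serpins were called higher in both, among them Serpina7, Serpinb6a and Serpinb6b. Beside this, 4 of 8 hepatocyte markers were lower on DDDA and 5 of 8 on the standard diet with none higher, and all 6 cholangiocyte and progenitor markers were higher on both diets, at a summed 92.7 to 1583 CPM in HBs on DDDA and 271 to 828 CPM in HBs on the standard diet, against 29.9 to 40.9 CPM in livers on DDDA and 25.4 to 36.6 CPM in livers on the standard diet. The part of cell makeup in the serpin changes was not tested.

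**Figure D3:**
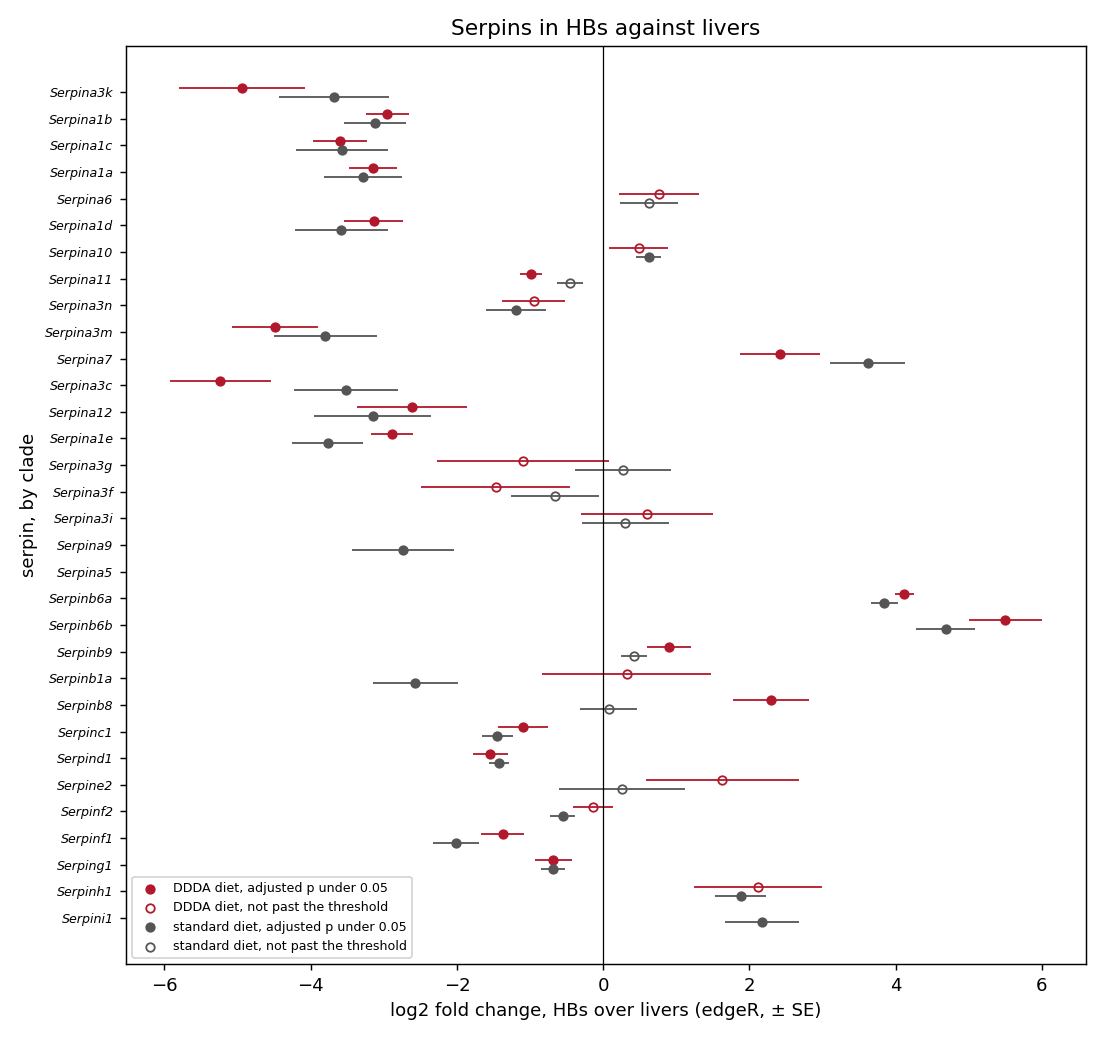
Fitted log2 fold change of HBs over livers with its standard error for the serpins shown, by clade, on the DDDA diet (red) and the standard diet (grey). Filled points passed an adjusted p of 0.05 (edgeR). The Serpina1 and Serpina3 copies lie between -2.89 and -5.23 where filled, apart from Serpina3n, and Serpinb6a and Serpinb6b lie between 3.84 and 5.50.

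The Serpina1 copies encode forms of α1-antitrypsin, the plasma inhibitor of neutrophil elastase, and all 5 copies that were tested fell on both diets. Serpina1a had 533, 811, 423, 439 and 768 CPM in HBs on DDDA, against 3311, 3726, 6233, 7454 and 6220.1 CPM in livers on DDDA. It had 425, 159, 179.5, 1033 and 703 CPM in HBs on the standard diet, against 5867, 3686, 4045, 7584 and 3386 CPM in livers on the standard diet. Values here and in later sentences stand in the order DT2264, DT2270, DT2277, DT3167 and DT3168 for HBs on DDDA, s1758, s1799, s1800, s2138 and s2139 for HBs on the standard diet, DL01 to DL05 for livers on DDDA, and c1, c12, c17, c4 and c7 for livers on the standard diet. The HBs lay below the livers without overlap on both diets, and the log2 fold change of HBs over livers was -3.15 ± 0.33, adjusted p = 6.15e-05 on DDDA and -3.29 ± 0.53, adjusted p = 3.10e-04 on the standard diet (± SE). Serpina1c had 357, 477, 296, 239.7 and 599 CPM in HBs on DDDA, against 2842, 3255, 5762, 6592 and 5968 CPM in livers on DDDA. It had 307, 119, 133, 1071 and 599.6 CPM in HBs on the standard diet, against 6756, 3743, 3915, 8677 and 3580.1 CPM in livers on the standard diet. Its groups did not overlap either, with -3.60 ± 0.37, adjusted p = 5.52e-05 on DDDA and -3.57 ± 0.62, adjusted p = 5.39e-04 on the standard diet. Serpina1d had 164, 139.5, 57.6, 44.5 and 87.9 CPM in HBs on DDDA, against 508, 677, 854, 1222 and 1166 CPM in livers on DDDA. It had 60.3, 27.5, 27.2, 212 and 106 CPM in HBs on the standard diet, against 1384, 559, 733, 1954 and 580.3 CPM in livers on the standard diet. The log2 fold change of Serpina1d was -3.14 ± 0.41, adjusted p = 1.86e-04 on DDDA and -3.58 ± 0.64, adjusted p = 6.12e-04 on the standard diet, again without overlap. Serpina1e, the rarest of the 5, had 1.55, 1.52, 1.03, 0.651 and 1.04 CPM in HBs on DDDA, against 6.74, 8.22, 6.76, 10.8 and 11.3 CPM in livers on DDDA. It had 0.529, 0.147, 0.345, 1.34 and 0.995 CPM in HBs on the standard diet, against 9.80, 6.09, 6.91, 14.5 and 8.23 CPM in livers on the standard diet. Its change was -2.89 ± 0.29, adjusted p = 5.13e-05 on DDDA and -3.77 ± 0.49, adjusted p = 6.56e-05 on the standard diet, the same direction as the abundant copies. Serpina1b was at 501 to 998 CPM in HBs and 4124 to 7057 CPM in livers on DDDA (-2.95 ± 0.29, adjusted p = 4.77e-05), and at 255 to 1119 CPM in HBs and 4139 to 6950.1 CPM in livers on the standard diet (-3.12 ± 0.42, adjusted p = 9.26e-05). Without s2138, the highest HB of its group in both, the standard diet value was -4.18 (adjusted p = 1.33e-04) for Serpina1c and -4.22 (adjusted p = 1.45e-04) for Serpina1d. With the reads of all 6 copies in the table summed to 1 row, which does not depend on how shared reads were split, the log2 fold change was -3.19 ± 0.36, adjusted p = 9.71e-05 on DDDA and -3.34 ± 0.53, adjusted p = 2.74e-04 on the standard diet.

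The Serpina3 copies are the mouse counterparts of α1-antichymotrypsin, and Serpina3k among them binds tissue kallikrein. Serpina3k had 391, 115, 1010.4, 25.6 and 370.0 CPM in HBs on DDDA, against 8103, 10396, 11782, 15113 and 15176 CPM in livers on DDDA. It had 217, 147, 232, 1683 and 750.4 CPM in HBs on the standard diet, against 10214, 6498, 2520.0, 15065 and 4838 CPM in livers on the standard diet. No HB reached the lowest liver, and the HBs spread widely among themselves, with DT3167 lowest and s2138 highest. The log2 fold change was -4.94 ± 0.87, adjusted p = 0.00103 on DDDA and -3.68 ± 0.76, adjusted p = 0.00157 on the standard diet. Serpina3m had 32.3, 6.75, 48.1, 6.16 and 27.5 CPM in HBs on DDDA, against 522, 527, 557, 641 and 547 CPM in livers on DDDA. It had 9.65, 6.46, 8.67, 93.3 and 31.3 CPM in HBs on the standard diet, against 367, 440.4, 415, 482 and 386 CPM in livers on the standard diet. The groups stayed apart on both diets, by -4.49 ± 0.58, adjusted p = 1.88e-04 on DDDA and -3.80 ± 0.71, adjusted p = 8.24e-04 on the standard diet. Serpina3c had 1.67, 0.245, 1.76, 0.0434 and 0.851 CPM in HBs on DDDA, against 26.7, 36.9, 18.9, 47.0 and 50.4 CPM in livers on DDDA. It had 0.749, 1.03, 0.844, 8.51 and 3.30 CPM in HBs on the standard diet, against 46.2, 25.2, 11.5, 59.2 and 22.05 CPM in livers on the standard diet. Its change was the largest fall among the serpins called on DDDA at -5.23 ± 0.69, adjusted p = 2.08e-04, with -3.52 ± 0.71, adjusted p = 0.00138 on the standard diet. Serpina3n, an acute phase protein, was at 129 to 519 CPM in HBs and 332 to 910.1 CPM in livers on DDDA (-0.95 ± 0.44, adjusted p = 0.093), and at 53.7 to 309.9 CPM in HBs and 282 to 405 CPM in livers on the standard diet (-1.20 ± 0.41, adjusted p = 0.0281). The standard diet fall of Serpina3n no longer passed without s1758, s1799 or c4 in turn, with adjusted p between 0.0546 and 0.0588. The HB s2138 was the highest of its group in Serpina3k, Serpina3m and Serpina3c, and without it the standard diet values were -4.52 (adjusted p = 2.67e-04), -4.87 (adjusted p = 1.60e-05) and -4.45 (adjusted p = 1.38e-04) in that order. Without DT2277 the DDDA value of Serpina3k was -5.72 (adjusted p = 7.10e-04). Without both DT2264 and DT2277 the DDDA values were -6.12 (adjusted p = 8.33e-04) for Serpina3k, -5.33 (adjusted p = 2.10e-04) for Serpina3m and -6.36 (adjusted p = 2.01e-04) for Serpina3c. Serpina3f, Serpina3g and Serpina3i passed the test in neither comparison. The sum of the 10 copies gave -4.29 ± 0.60, adjusted p = 2.78e-04 on DDDA and -3.44 ± 0.69, adjusted p = 0.0013 on the standard diet.

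Serpina12, known as the adipokine vaspin and an inhibitor of kallikreins, fell as well. It had 5.56, 1.66, 13.5, 0.217 and 2.28 CPM in HBs on DDDA, against 29.9, 28.5, 32.9, 29.7 and 26.2 CPM in livers on DDDA. It had 2.73, 1.94, 2.99, 25.2 and 11.6 CPM in HBs on the standard diet, against 101, 66.6, 20.3, 176 and 32.7 CPM in livers on the standard diet. On DDDA the groups did not overlap, whereas on the standard diet the highest HB, s2138, exceeded the lowest liver, c17. The log2 fold change was -2.62 ± 0.75, adjusted p = 0.0145 on DDDA and -3.15 ± 0.80, adjusted p = 0.00579 on the standard diet, and the DDDA call was lost without the libraries of the other flow cell, DL03 and DT3168, at -2.40 (adjusted p = 0.0614). Without DT2277 the DDDA value was -3.57 (adjusted p = 0.00209), without DT2264 and DT2277 -4.35 (adjusted p = 3.70e-04), and without s2138 the standard diet value was -4.02 (adjusted p = 0.00117). Serpina9 was tested between tissues on the standard diet only and fell (-2.74 ± 0.70, adjusted p = 0.00603), with levels of at most 3.95 CPM in any liver. Serpina11 fell on DDDA (-0.99 ± 0.16, adjusted p = 5.47e-04), and on the standard diet its value was -0.45 ± 0.18, adjusted p = 0.0502.

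Serpina7, thyroxine-binding globulin, was the only clade a gene called higher in HBs on both diets. It had 143, 769.6, 103, 166 and 180.2 CPM in HBs on DDDA, against 39.8, 80.4, 40.3, 35.3 and 58.6 CPM in livers on DDDA. It had 313, 67.6, 67.8, 139.9 and 199 CPM in HBs on the standard diet, against 14.2, 7.58, 25.2, 7.37 and 10.0 CPM in livers on the standard diet. Every HB lay above every liver of its diet, and DT2270 was the highest library. The log2 fold change was 2.42 ± 0.55, adjusted p = 0.0043 on DDDA and 3.62 ± 0.51, adjusted p = 1.27e-04 on the standard diet, and without DT2270 the DDDA value was 1.58 (adjusted p = 0.0015). Serpina10, the protein Z-dependent inhibitor of coagulation factor X, was higher in HBs on the standard diet (0.62 ± 0.17, adjusted p = 0.00789), a call that was lost with all 4 groups in one fit, at 0.61 (adjusted p = 0.12), and on DDDA its value was 0.48 ± 0.41, adjusted p = 0.35. Serpina6, which binds glucocorticoids, passed the test on neither diet, with 0.76 ± 0.55, adjusted p = 0.27 on DDDA and 0.63 ± 0.39, adjusted p = 0.20 on the standard diet. Its levels in HBs on DDDA ranged widely, at 148, 1985, 1347, 765 and 371 CPM, against 469.7 to 622 CPM in livers on DDDA.

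Clade b serpins act mainly inside cells on lysosomal and granule proteases, and Serpinb6a and Serpinb6b both rose in HBs on either diet. Serpinb6a, whose human counterpart inhibits cathepsin G and trypsin-like proteases (chr13:33917918-34002794, minus strand), had 239, 267, 262, 248 and 259.5 CPM in HBs on DDDA, against 15.3, 18.1, 13.3, 12.8 and 15.6 CPM in livers on DDDA. It had 261, 191, 214, 222 and 284 CPM in HBs on the standard diet, against 13.6, 15.9, 20.05, 12.6 and 19.7 CPM in livers on the standard diet. The HB values of Serpinb6a varied little and lay far above every liver, with 4.12 ± 0.13, adjusted p = 7.48e-08 on DDDA and 3.84 ± 0.18, adjusted p = 8.28e-08 on the standard diet. Serpinb6b had 43.1, 146, 28.4, 101 and 54.8 CPM in HBs on DDDA, against 1.25, 2.68, 1.34, 1.44 and 1.60 CPM in livers on DDDA. It had 59.5, 22.01, 25.9, 21.1 and 21.7 CPM in HBs on the standard diet, against 1.29, 0.406, 1.31, 1.44 and 1.41 CPM in livers on the standard diet. These groups did not overlap either, and the log2 fold change of Serpinb6b was 5.50 ± 0.50, adjusted p = 2.93e-05 on DDDA and 4.69 ± 0.40, adjusted p = 4.01e-06 on the standard diet. The sum of the 5 Serpinb6 copies gave 4.33 ± 0.17, adjusted p = 3.13e-07 on DDDA and 3.92 ± 0.18, adjusted p = 8.01e-08 on the standard diet.

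Of the other clade b genes, Serpinb8 and Serpinb9 were called on DDDA and Serpinb1a on the standard diet. Serpinb8, whose human counterpart inhibits furin, had 4.97, 3.86, 2.83, 7.33 and 17.9 CPM in HBs on DDDA, against 2.45, 1.43, 1.58, 0.988 and 1.24 CPM in livers on DDDA. It had 5.02, 4.00, 4.95, 3.49 and 2.89 CPM in HBs on the standard diet, against 2.51, 4.47, 7.60, 1.19 and 3.56 CPM in livers on the standard diet. On DDDA each HB lay above each liver, while on the standard diet the groups overlapped. Its log2 fold change was 2.29 ± 0.52, adjusted p = 0.00434 on DDDA and 0.08 ± 0.39, adjusted p = 0.88 on the standard diet, and without DT3168 the DDDA value was 1.65 (adjusted p = 0.00536). Serpinb9, the granzyme B inhibitor, was at 10.8 to 24.3 CPM in HBs and 6.18 to 14.6 CPM in livers on DDDA (0.90 ± 0.31, adjusted p = 0.0316), a call that was lost in 6 of the 10 fits without 1 library, with adjusted p up to 0.0728. The 6 were those without DT2264, DT2270, DT3167, DL03, DL04 or DL05, and it was also lost with sex as a covariate, at 0.77 (adjusted p = 0.0582), and without DL03 and DT3168, at 0.96 (adjusted p = 0.0683). On the standard diet it was at 0.41 ± 0.18, adjusted p = 0.0661. Serpinb1a, which inhibits neutrophil elastase and other granule proteases, fell on the standard diet (-2.57 ± 0.58, adjusted p = 0.00287), at 0.573, 1.28, 1.23, 1.39 and 0.768 CPM in HBs, against 3.11, 8.59, 8.29, 0.678 and 10.6 CPM in livers. The liver c4 lay among the HBs. It had 15.6, 0.0489, 4.36, 0.130 and 1.23 CPM in HBs on DDDA, against 8.58, 3.86, 1.16, 1.44 and 2.33 CPM in livers on DDDA. There its values overlapped and its log2 fold change was 0.32 ± 1.16, adjusted p = 0.83, with DT2264 and DT2277 the highest HBs. These were also the 2 HBs with the highest sums of neutrophil markers, at 113 and 97.2 CPM, while the other HBs on DDDA had at most 4.50 CPM. The part of such cells in the Serpinb1a level was not tested. Whether the tissue difference of Serpinb1a or Serpinb8 depended on diet was tested with all 4 groups and did not pass, with 2.86 ± 1.37, adjusted p = 0.82 for Serpinb1a and 2.18 ± 0.67, adjusted p = 0.62 for Serpinb8.

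**Figure D4:**
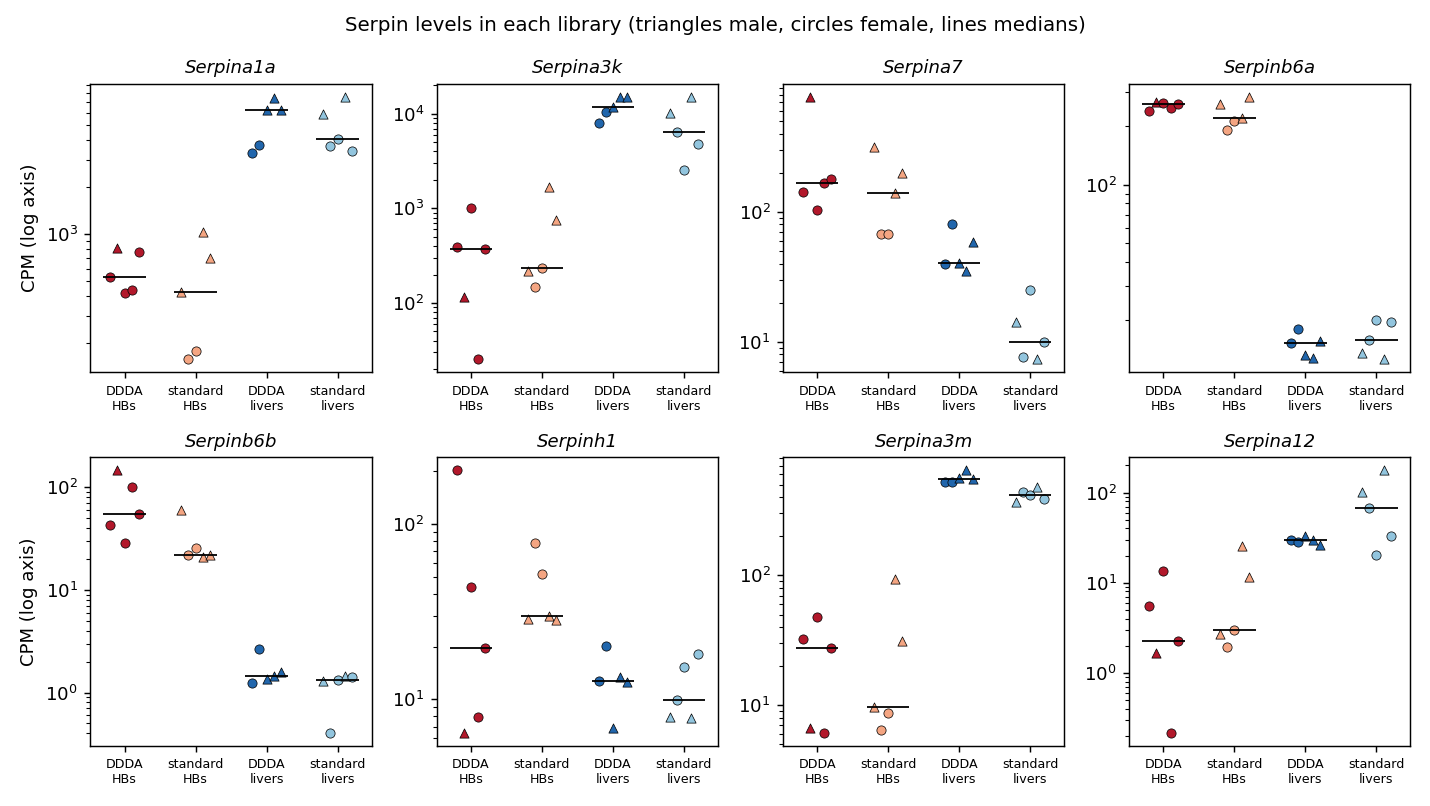
CPM on log axes of 8 serpins in each library, by group, with triangles for male and circles for female mice and lines for the group medians. HBs lie below livers in Serpina1a, Serpina3k and Serpina3m and above them in Serpina7, Serpinb6a and Serpinb6b, and 1 HB on DDDA stands apart in Serpinh1.

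In clade e, Serpine2, the thrombin and urokinase inhibitor protease nexin 1, was at 1.61 to 89.1 CPM in HBs and 0.948 to 17.2 CPM in livers on DDDA, and at 10.2 to 30.2 CPM in HBs and 1.52 to 56.0 CPM in livers on the standard diet. It passed the test in neither comparison, with 1.63 ± 1.05, adjusted p = 0.22 and 0.26 ± 0.87, adjusted p = 0.82.

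Serpinh1, the collagen chaperone Hsp47, is not an inhibitor. It had 202, 6.46, 43.7, 7.90 and 19.7 CPM in HBs on DDDA, against 12.8, 20.2, 6.89, 13.4 and 12.5 CPM in livers on DDDA. It had 28.8, 78.1, 51.7, 29.79 and 28.2 CPM in HBs on the standard diet, against 7.90, 9.88, 15.2, 7.80 and 18.2 CPM in livers on the standard diet. On the standard diet each HB exceeded each liver and Serpinh1 rose by a log2 fold change of 1.88 ± 0.35, adjusted p = 8.20e-04. On DDDA the groups overlapped, with DT2264 highest and DT2270 lowest of all 10, and the value was 2.11 ± 0.88, adjusted p = 0.0669. Without DT2264 it was 0.61 (adjusted p = 0.38). Without DT2264 and DT2277 it was -0.18 (adjusted p = 0.76), and without DT2270 or DT3167 it passed, at 2.40 (adjusted p = 0.0314) and 2.39 (adjusted p = 0.0374), as it did in DESeq2, at 2.12 (adjusted p = 0.015). With all 4 groups in one fit it passed too, at 2.09 (adjusted p = 0.0171). DT2264 also held 298 summed CPM of 5 smooth muscle markers, while the other HBs on DDDA had 6.56 to 17.2 and the HBs on the standard diet 11.4 to 38.7. Of the 8 collagen genes and partners of Hsp47, 4 rose and none fell on DDDA, where 26.3% of all genes tested were higher and 23.4% lower. On the standard diet 7 rose and 1 fell, where 28.2% were higher and 26.8% lower. Among them, Col4a1 had 2.30 ± 0.82, adjusted p = 0.0374 on DDDA and 2.31 ± 0.35, adjusted p = 1.94e-04 on the standard diet. The 8 genes summed to 5043 CPM in DT2264, while the other HBs on DDDA had 1192 to 1985 CPM. Col4a1 was at 58.9 to 987 CPM in HBs and 28.9 to 116 CPM in livers on DDDA. How these counts change without DT2264 was not examined. The part of stromal cells in these levels was not tested.

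Most plasma serpins of the remaining clades fell too. Serpinc1, antithrombin, was at 391 to 1829 CPM in HBs and 2382 to 3101 CPM in livers on DDDA (-1.10 ± 0.34, adjusted p = 0.0206), and at 633 to 1218 CPM in HBs and 2199 to 2970.0 CPM in livers on the standard diet (-1.45 ± 0.21, adjusted p = 1.70e-04). Serpind1, heparin cofactor II, was at 146 to 372 CPM in HBs and 724 to 837 CPM in livers on DDDA (-1.54 ± 0.24, adjusted p = 5.31e-04), and at 214 to 287 CPM in HBs and 581 to 738 CPM in livers on the standard diet (-1.42 ± 0.14, adjusted p = 7.65e-06). Neither gene overlapped between HBs and livers, and the DDDA call of Serpinc1 was lost without DL03 and DT3168, at -1.15 (adjusted p = 0.0616), and with sex as a covariate, at -0.99 (adjusted p = 0.0506). Serpinf1, pigment epithelium-derived factor, fell by 1.37 (SE 0.29, adjusted p = 0.00315) on DDDA and 2.01 (SE 0.31, adjusted p = 2.46e-04) on the standard diet on the log2 scale. Serpinf2, α2-antiplasmin, fell on the standard diet (-0.55 ± 0.17, adjusted p = 0.0177) and had -0.14 ± 0.27, adjusted p = 0.70 on DDDA. Serping1, the C1 inhibitor of complement and contact activation, fell on the standard diet (-0.69 ± 0.16, adjusted p = 0.00348). On DDDA its call (-0.68 ± 0.26, adjusted p = 0.0475) held only without DT2264 and was lost in the other 9 fits without 1 library, with adjusted p up to 0.13. It was lost as well without a filter, at -0.66 (adjusted p = 0.0796), and with the length trend removed, at -0.57 (adjusted p = 0.0872). Serpini1, neuroserpin, was tested on the standard diet alone and was higher in HBs (2.18 ± 0.51, adjusted p = 0.00341), at 0.542 to 2.31 CPM, against 0.0760 to 0.553 CPM in livers. These groups overlapped. No liver on the standard diet had more than 9 reads of Serpini1, so it passed the filter on low counts through the HBs alone.

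The proteases that serpins act on, with their cofactors, were described from a list of 44 genes. The list also held the 8 collagen genes and partners of Hsp47 above, which are not proteases. These 8 gave 4 of the higher and 0 of the lower genes on DDDA in the counts that follow. On the standard diet they gave 7 of the higher and 1 of the lower genes, so these counts do not describe proteases alone. On DDDA, 38 were tested, with 12 higher and 16 lower in HBs, and on the standard diet 40 were tested, with 15 higher and 18 lower, where 26.3% and 23.4% of all genes were higher and lower on DDDA and 28.2% and 26.8% on the standard diet. All 8 coagulation and contact proteases fell on both diets, the direction of antithrombin and heparin cofactor II above. Among them, F7 had -1.52 ± 0.15, adjusted p = 4.16e-05 on DDDA and -1.89 ± 0.31, adjusted p = 3.24e-04 on the standard diet. F11 had -2.51 ± 0.53, adjusted p = 0.00288 on DDDA and -2.90 ± 0.36, adjusted p = 4.73e-05 on the standard diet, and Klkb1, plasma prekallikrein, had -2.77 ± 0.52, adjusted p = 0.00145 and -2.22 ± 0.27, adjusted p = 3.89e-05. In the plasminogen system, 4 of 7 rose and 2 fell on DDDA, and 3 rose and 2 fell on the standard diet. Plat, the tissue-type plasminogen activator, had 5.25 ± 0.81, adjusted p = 4.92e-04 on DDDA and 4.87 ± 0.54, adjusted p = 2.23e-05 on the standard diet, and Plaur, the urokinase receptor, had 4.45 ± 0.88, adjusted p = 0.00208 and 3.96 ± 0.35, adjusted p = 4.62e-06. Plat was at 6.23 to 71.8 CPM in HBs and 0.366 to 1.30 CPM in livers on DDDA. Of the 6 membrane and growth factor serine proteases, 3 rose and 3 fell on each diet. Among them, St14, the membrane protease matriptase, had the largest log2 fold change of the whole list on DDDA at 6.84 ± 0.83, adjusted p = 1.29e-04, with 6.65 ± 0.32, adjusted p = 9.00e-08 on the standard diet. St14 was at 7.24 to 133 CPM in HBs and 0.380 to 0.945 CPM in livers on DDDA. The livers alone would not have passed the filter on low counts there, so the size of this change rests on liver levels near the floor. Among complement proteases 3 of 4 fell on each diet, and Masp1 had -0.92 ± 0.15, adjusted p = 5.79e-04 on DDDA and -1.39 ± 0.21, adjusted p = 1.83e-04 on the standard diet. Of 7 leukocyte proteases, 1 was tested on DDDA and did not pass and 3 on the standard diet, where only Prtn3 was called, at 7.03 ± 0.75, adjusted p = 1.73e-05. Prtn3 was at 5.06 to 35.8 CPM in HBs and 0 to 0.380 CPM in livers on the standard diet. It passed the filter on low counts through the HBs alone, so the size of this change rests on liver levels near the floor.

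The diet comparison asked whether serpin transcripts moved with DDDA. In HBs none of the 31 serpins tested passed edgeR's test in either direction, where 0.0994% of 14082 genes were higher and 0.199% lower on DDDA. Unadjusted, 5 had p below 0.05, and DESeq2 called 0 higher and 1 lower, Serpina11 (-0.61, adjusted p = 0.0163), which in edgeR had -0.60 ± 0.16, adjusted p = 0.13. Serpinh1 had 0.39 ± 0.87, adjusted p = 0.86, and without DT2264 -1.18 (adjusted p = 0.27), so its direction rested on that library. Serpinb6b had 1.29 ± 0.45, adjusted p = 0.21 and Serpinb9 0.69 ± 0.24, adjusted p = 0.20, and neither passed. For Serpina12 the value was -0.92 ± 0.97, adjusted p = 0.68. Without DT2277 it was -1.86 (adjusted p = 0.38), and without s2138 -0.04 (adjusted p = 0.99).

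In livers, 2 of 32 serpins were higher on DDDA and none was lower, where 4.27% of 12803 genes were higher and 3.07% lower. Unadjusted, 7 had p below 0.05. Serpina7 had 39.8, 80.4, 40.3, 35.3 and 58.6 CPM in livers on DDDA, against 14.2, 7.58, 25.2, 7.37 and 10.0 CPM in livers on the standard diet. Every liver on DDDA lay above every liver on the standard diet, by a log2 fold change of 2.001 ± 0.36, adjusted p = 0.0134, and the call held in all 10 fits without 1 library. With all 4 groups in one fit it did not pass, at 1.98 (adjusted p = 0.0627). In HBs, where Serpina7 was higher than in livers, the same diet contrast gave 0.77 ± 0.61, adjusted p = 0.56. Sex was not balanced there, with 1 male and 4 females on DDDA against 3 and 2 on the standard diet. DT2270, the highest HB, was the only male on DDDA. Serpina3m had 522, 527, 557, 641 and 547 CPM in livers on DDDA, against 367, 440.4, 415, 482 and 386 CPM in livers on the standard diet. Its groups did not overlap, and the difference was small, at 0.43 ± 0.10, adjusted p = 0.0361. This call was lost in 8 of the 10 fits without 1 library, those without DL01, DL03, DL04, DL05, c1, c12, c17 or c7, with adjusted p up to 0.11. It was also lost without a filter, at 0.41 (adjusted p = 0.0718), and with all 4 groups in one fit, at 0.42 (adjusted p = 0.78). DESeq2 called 4 higher, among them Serping1, and 2 lower, Serpinb8 (-1.32, adjusted p = 0.0285) and Serpina12. In edgeR, Serpina12 had -1.43 ± 0.48, adjusted p = 0.0939, and passed with sex as a covariate, at -1.34 (adjusted p = 0.0496), and without c17, at -1.68 (adjusted p = 0.0414). The direction of Serpinh1, at 0.17 ± 0.31, adjusted p = 0.76, turned without DL02, at -0.05 (adjusted p = 0.92). Because diet and sequencing run cannot be told apart, these values stand for both.

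The difference of the diet effect between HBs and livers was tested with all 4 groups. None of 33 serpins passed edgeR's test in either direction, and 0% of 14502 genes did so in either direction. Unadjusted, 3 serpins had p below 0.05, namely Serpinb8, Serpina11 (-0.56 ± 0.23, adjusted p = 0.81) and Serpinb1a, and DESeq2 called 0 higher and 0 lower.

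Several serpins differed between male and female livers. Males and females of both diets were compared over the 10 livers, 5 of each sex, with diet as a covariate, a comparison that was added after the values of the libraries had been seen. Of 32 serpins tested, 7 were higher and 6 lower in males, where 5.74% of 13676 genes were higher and 9.34% lower. Serpina1a was at 5867 to 7584 CPM in male livers and 3311 to 4045 CPM in female livers (0.86 ± 0.13, adjusted p = 0.0016). The sexes did not overlap, and the copies Serpina1b (0.54 ± 0.12, adjusted p = 0.0112), Serpina1c (1.0 ± 0.12, adjusted p = 4.77e-04) and Serpina1d (1.12 ± 0.18, adjusted p = 0.0025) were also higher in males. Serpina3k was higher in males by 1.004 ± 0.27, adjusted p = 0.0276, a call lost without c4 or c7, with adjusted p of 0.0692 and 0.0675. Serpine2 was at 9.99 to 56.0 CPM in male livers and 0.948 to 2.52 CPM in female livers, the largest log2 fold change of the serpins at 3.80 ± 0.39, adjusted p = 1.38e-04. Serpina5, the protein C inhibitor, was at 1.90 to 4.07 CPM in males and 0.0691 to 1.35 CPM in females (2.20 ± 0.55, adjusted p = 0.0215), and was not called without c4 (2.01, adjusted p = 0.0661).

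Female livers held more of 6 serpins. Serpinb1a was at 0.678 to 3.11 CPM in male livers and 3.86 to 10.6 CPM in female livers (-2.11 ± 0.36, adjusted p = 0.00335). Serpina3g (-3.22 ± 0.68, adjusted p = 0.0103), Serpina3f (-2.60 ± 0.60, adjusted p = 0.0151) and Serpinb9 (-0.73 ± 0.15, adjusted p = 0.0095) were lower in males too. DL02, a female liver, was the highest in Serpina3g and Serpina3f, and without it Serpina3f had -1.49 (adjusted p = 0.0788) while Serpina3g was still called at -1.72 (adjusted p = 0.0362). The calls of Serpinb6a (-0.40 ± 0.11, adjusted p = 0.0368) and Serpinh1 (-0.75 ± 0.23, adjusted p = 0.0463) were each lost in 7 of the 10 fits without 1 library. Those 7 were the fits without DL02, DL03, c1, c17, c4 or c7 for both genes, together with DL04 for Serpinb6a and DL05 for Serpinh1, and the adjusted p reached 0.16 for Serpinb6a and 0.15 for Serpinh1. In HBs, with 4 males and 6 females, no serpin of 35 tested passed in either direction, where 0.0308% of 16217 genes were higher and 0.00617% lower in males, and 9 serpins had an unadjusted p below 0.05. Serpina1a had 1.496 ± 0.41, adjusted p = 0.42 in HBs, and Serpine2 had -1.15 ± 0.98, adjusted p = 0.68. Serpina7 was at 139.9 to 769.6 CPM in male HBs and 67.6 to 180.2 CPM in female HBs (1.93 ± 0.26, adjusted p = 0.0671), and passed only without s2138 among the fits without 1 library (2.12, adjusted p = 0.0273). Whether the sex difference itself differed between HBs and livers was not tested.

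**Figure D5:**
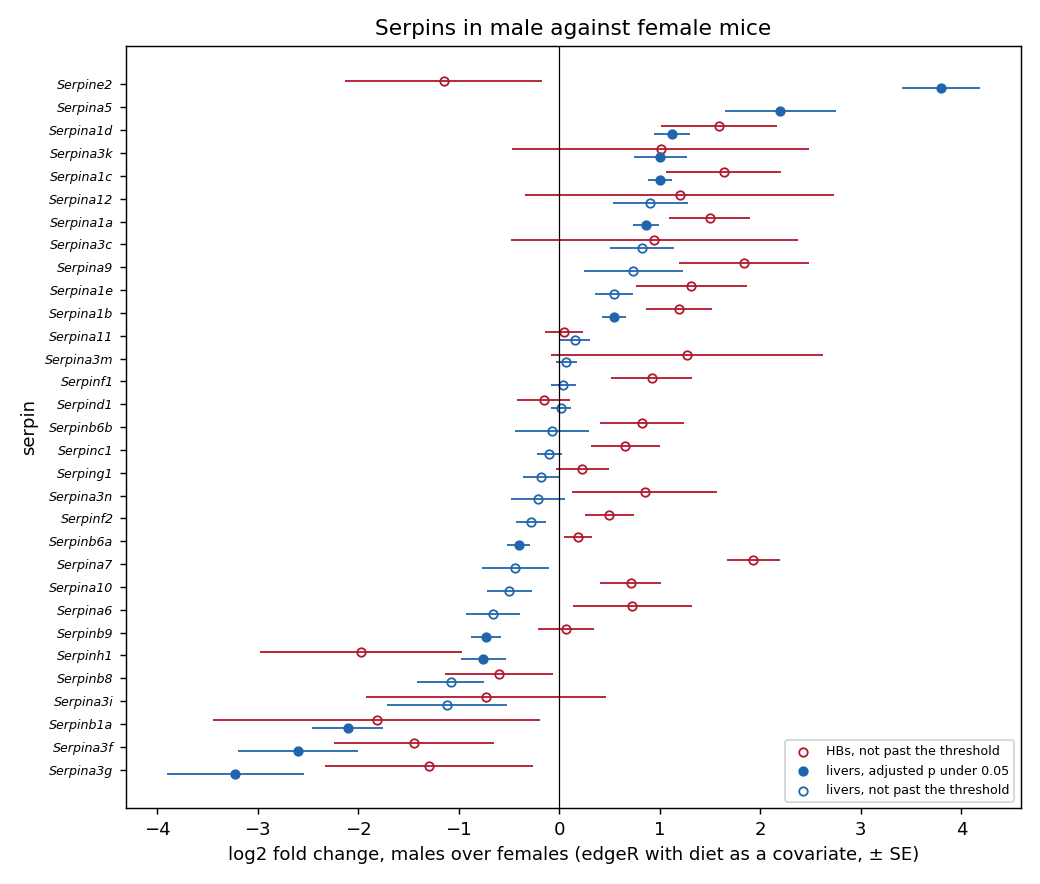
Fitted log2 fold change of males over females with its standard error for the serpins shown in livers (blue) and the same genes in HBs (red), with diet as a covariate. Filled points passed an adjusted p of 0.05 (edgeR). In livers 7 serpins lie to the right and 6 to the left among filled points, and no HB point is filled.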

How the data were processed

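Total RNA libraries of 10 HBs and 10 livers were analysed. As deposited, the authors' table holds whole-number counts per gene with no normalization. The authors also deposited RPKM values, scaled by exon length and mapped reads, and TPM values, scaled by length to a fixed total. RPKM values served here only to recover exon length. The build in the submitters' processing notes is GRCm38.p6, and the aligner and its handling of reads that fit several genes are not stated in the sources at hand. The authors' own fold changes, p-values and normalized CPM in the table were not used. Only the standard diet columns are named as paired and trimmed.

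Each comparison was fitted on all genes with edgeR 4.0.16 (R 4.3.3, filterByExpr, TMM, quasi-likelihood F-test, Benjamini-Hochberg over all genes kept, threshold 0.05), using the libraries of its 2 groups, or all 20 for the difference of the diet effect. Alternatives included DESeq2 1.42.0. Standard errors are the log2 fold change over the root of F. CPM were scaled by TMM over the 20 libraries, and TPM were used to compare genes. Copies of a paralog group were also summed and refitted. Coding sequences were read from GENCODE transcripts (release M21, GRCm38) as the longest open reading frame, and the loop was placed by the serpin signature motif or, for Serpina3 copies, a shared hinge. The code was tested on simulated data. All members that passed the filter may be named, and values by library are given for Serpina12, Serpinh1, the members called across diets, and up to 5 called members with the largest rise and fall between tissues and a mean of at least 5 CPM in 1 group. Genes of other lists were named by smallest p within a subgroup. One member is counted among the 62 and is not reported here by name. The members and lists were chosen with earlier results of these data known. Depth was 16548771 to 29783324 counts per library, and p-values cover the spread between libraries. The 5 HBs of long-term DDDA were left out, as outside the 4 groups compared.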

Additional observations from a re-analysis of the deposited data

Results flagged for a closer look

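The 13 serpins given by library were checked in each group of 5 for a highest or lowest library whose gap to its neighbour exceeded Dixon's 95% critical share of the group's range. Of 52 pairs of gene and group, 6 had such a library. Chance alone flags about 1 in 20 only for independent, normally distributed values. The check used CPM without a log scale and included related copies, so the 6 cannot be judged against that rate. Serpina3m in HBs on the standard diet had its highest value in s2138, 93.3 CPM, and the nearest other library had 31.3 CPM. Serpina7 in HBs on DDDA had its highest value in DT2270, 769.6 CPM, and the nearest other library had 180.2 CPM. Serpinb6b in HBs on the standard diet had its highest value in s1758, 59.5 CPM, and the nearest other library had 25.9 CPM. Serpinb6b in livers on DDDA had its highest value in DL02, 2.68 CPM, and the nearest other library had 1.60 CPM. Serpinb6b in livers on the standard diet had its lowest value in c12, 0.406 CPM, and the nearest other library had 1.29 CPM. Serpinh1 in HBs on DDDA had its highest value in DT2264, 202 CPM, and the nearest other library had 43.7 CPM. Without the library in question, the log2 fold change of HBs over livers was -4.87 (adjusted p = 1.60e-05) for Serpina3m on the standard diet, 1.58 (adjusted p = 0.0015) for Serpina7 on DDDA and 0.61 (adjusted p = 0.38) for Serpinh1 on DDDA. For Serpinb6b it was 4.29 (adjusted p = 1.72e-06) without s1758, 4.45 (adjusted p = 1.44e-05) without c12 and 5.75 (adjusted p = 6.94e-05) without DL02.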

How the results depend on the processing

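The settings tried were DESeq2, RLE scaling, no filter on low counts, all 4 groups in one fit, sex as a covariate, removal of a trend with transcript length, leaving out the 2 DDDA libraries of another flow cell, leaving out DT2264 and DT2277, and leaving out each library in turn. Without 1 library, 6 to 7 serpins were higher and 13 to 18 lower in HBs on DDDA, and 7 to 8 higher and 16 to 18 lower on the standard diet. Over 42 tissue calls and their settings, 683 of 710 kept call and direction, 27 no longer passed and none turned, and these 27 came from 6 genes. The tissue calls of the member not reported by name were left out of this tally, though they enter the other counts. For the diet effect in HBs, one fit of all groups gave 1 higher and 1 lower, DESeq2 gave 1 lower, and every fit without 1 library gave 0. In livers, the higher count was 4 with DESeq2, 1 without a filter, 0 in one fit of all groups, 1 without DL03 and DT3168, and 1 to 2 without 1 library. The lower count was 2 with DESeq2, 1 with sex as a covariate, and 0 to 2 without 1 library. The difference of the diet effect gave 0 under every setting run. Direction turned, with no call in any of these fits, for Serpina12 across diets in HBs with sex as a covariate (0.023), and for Serpinh1 across diets in HBs with sex (-0.61), without DT2264 and DT2277 (-1.97) and without DT2264 (-1.18), across diets in livers without DL02 (-0.054), and in HBs over livers on DDDA without DT2264 and DT2277 (-0.18). Over the fits without 1 library, Serpinh1 across diets was -1.18 to 0.74 in HBs and -0.054 to 0.34 in livers, and Serpina12 across diets in HBs was -1.86 to -0.045. Without 1 library, 5 to 9 serpins were higher and 4 to 6 lower in male livers, and 0 to 1 higher and 0 lower in male HBs. Without a filter the median log2 fold change of all genes in HBs over livers was 0.32 on DDDA and 0.18 on the standard diet. The causes were not tested. No paired analysis was possible because the libraries carry no replicate number shared between groups. The 29 serpins under the filter on low counts were not tested, and 9 of them had no read in any library.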
